A study of Homo sapiens with 4 samples.

Results

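BCL2, BCL2L1, BBC3, TNFRSF10B, FAS and TP53INP1 are genes of the BCL2 family, of the death receptors and of the p53 response. Among them are genes of both the intrinsic and the extrinsic route of apoptosis. The 6 genes were picked by symbol from a comparison of HRP2 knockdown with control myeloma cells. All 6 of the 6 named genes were among the 684 genes of the authors' deposited gene table. Their fold changes and Q values in that table are what they were chosen on, so these values are given as a description and without a test. In the transcript table, which holds 1040 transcripts, 2 transcripts belonged to these genes, 1 of BCL2L1 and 1 of TP53INP1.

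The cells were LP-1, an established human multiple myeloma line, in 2 groups of 2 RNA sequencing libraries each. One group was HRP2 knockdown cells, made with a lentiviral guide RNA against HRP2, the chromatin reader encoded by HDGFL2. The other was cells given a non-target control by the same route. Both were grown in the same serum-supplemented medium, and the labels name no drug treatment of either group. They do not say whether the guide edited or repressed the gene, whether the cells were 1 clone or a pool, or whether a group's 2 libraries are separate cultures. The Q values may therefore measure only technical spread. HDGFL2 itself was at -1.37 on the log2 scale in the authors' deposited gene table, with a Q value of 2.99e-13.

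Every fold change here is the authors' own, knockdown over control, so a negative log2 value means lower in HRP2 knockdown cells. No value per library was used here, and no fold change carries an SD or an SE. Whether the libraries of the groups overlap is not known for any gene, nor is the depth behind a value. Genes with a Q value of 0.05 or more are outside the deposited table (its largest Q value was 0.0495) and have no value, which is not the same as no change. In bulk RNA, fewer cells of a kind and less RNA per cell cannot be told apart. Plasma cell identity could not be checked by level. Of 10 plasma cell markers 3 were in the authors' deposited gene table, which held 2.81% of all listed mRNA genes. All 3 were lower in the knockdown, as were 47.2% of all genes in that table. Their log2 fold changes were -0.63 for IRF4, -0.48 for TNFRSF17 and -0.45 for SDC1. With so few markers called, nothing is read from their shared direction. At transcript level IRF4 went both ways, with XM_006715090.2 at 1.93 (Q = 0.000426) and NM_002460.3 at -1.04 (Q = 0.0108) in the authors' deposited transcript table. None of 15 markers of T and NK, myeloid, stromal and epithelial cells was in the gene table or the transcript table. The part of the plasma cell genes in the values below was not tested.

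Apoptosis runs along an intrinsic and an extrinsic route. In the intrinsic route, anti-apoptotic proteins such as BCL2 and BCL-xL hold back the pore-forming proteins BAX and BAK1, and BH3-only proteins such as PUMA, the product of BBC3, release that hold. In the extrinsic route, ligands such as TRAIL and FAS ligand bind death receptors that recruit FADD and caspase-8. The transcription factor p53 induces genes of both routes, BBC3, FAS and TNFRSF10B among them, and myeloma cells are known for their dependence on anti-apoptotic BCL2 proteins.

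Of the 6 genes, 5 were lower and 1 was higher in HRP2 knockdown cells. The lower ones held both genes that restrain apoptosis and genes that promote it, and the higher one was the death receptor gene FAS. The median log2 fold change over the 6 genes was -0.82 in the authors' deposited gene table, where the median over all 684 genes was 0.47. That table holds called genes only, with medians of -0.78 for its lower and 0.66 for its higher genes. Of all genes in that table, 47.2% were lower and 52.8% higher. The table as a whole held 2.81% of the 24237 mRNA genes that the authors list, 1.32% as lower and 1.49% as higher. A Q value under 0.01 was held by 3 of the 6 genes and by 37.3% of all genes there, and an absolute log2 fold change of 1 or more by 1 of the 6, BBC3, and by 21.8% of all genes there. Since the 6 genes were taken from the table, nothing is read from these medians and shares.

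**Figure D1:**
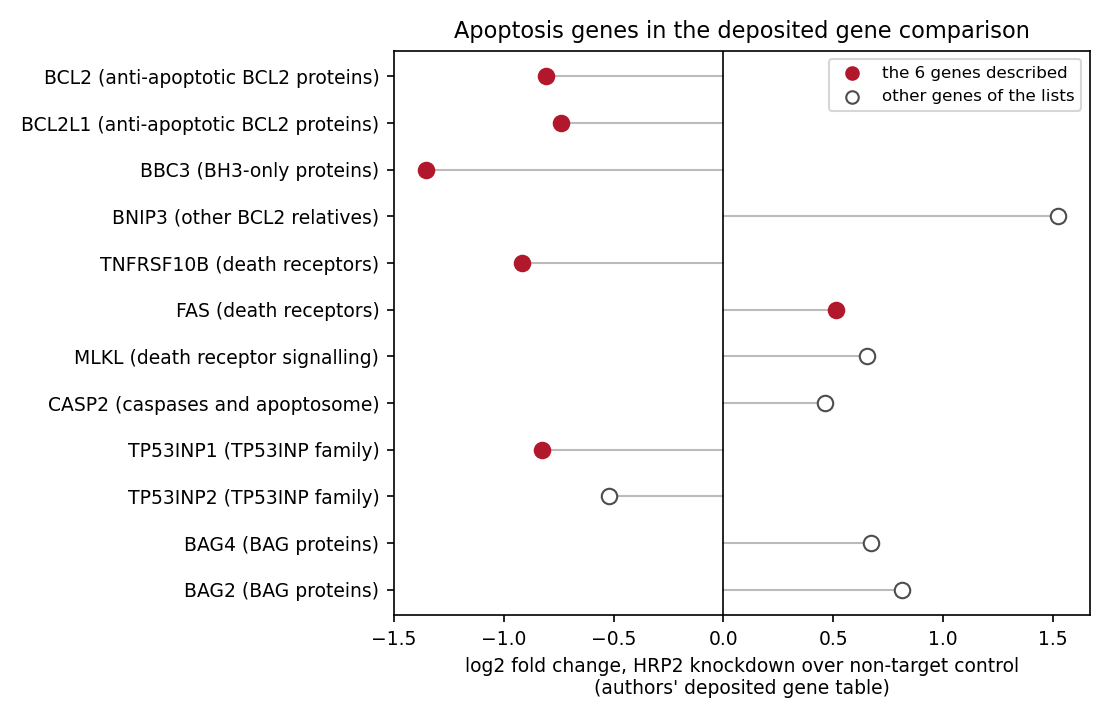
Log2 fold change of HRP2 knockdown over non-target control (horizontal axis) for the 12 genes of the apoptosis and p53 lists found in the authors' deposited gene table, grouped by role. Filled points are the 6 genes described and open points the other 6, and there are no error bars because the table gives none. BBC3 lies lowest at -1.36 and BNIP3 highest at 1.52.

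Both anti-apoptotic genes were lower in the knockdown, and by nearly the same amount. BCL2 (gene ID 596, chromosome 18) encodes the mitochondrial guardian after which the family is named. The authors' deposited gene table gives it a log2 fold change of -0.81 (Q = 0.0102), which puts HRP2 knockdown cells at 0.571 times the control level. BCL2L1 (gene ID 598, chromosome 20), which encodes BCL-xL and, by alternative splicing, the pro-apoptotic BCL-xS, lay at -0.74 there (Q = 0.0051), or 0.599 times the control level. The difference, BCL2 minus BCL2L1, was -0.07 on the log2 scale, and whether that exceeds the spread between libraries is not known. BCL2 ranked 152nd and BCL2L1 175th by size among the 323 lower genes, whose median log2 fold change was -0.78, so both lay near the middle of the lower genes. The other 4 anti-apoptotic genes of the list, BCL2L2, MCL1, BCL2A1 and BCL2L10, were outside the table. MCL1, on which many myeloma lines depend, therefore has no value here.

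The BH3-only gene BBC3 (gene ID 27113, chromosome 19) had the largest change of the 6. PUMA, its product, binds and neutralizes every major anti-apoptotic BCL2 protein. The authors' deposited gene table puts its log2 fold change at -1.36, which is 0.39 times the control level, and BBC3 ranked 42nd by size among the 323 lower genes. Its Q value was 0.0235, weaker than that of the other lower members although the change was larger. Of the 58 genes in the authors' deposited gene table with a change at least as large as that of BBC3, itself included, 14 had a larger Q value. In rank by Q value BBC3 stood 412th of 684. The other 7 BH3-only genes of the list (PMAIP1, BCL2L11, BID, BAD, BIK, BMF and HRK) and the 3 pore-forming genes BAX, BAK1 and BOK were outside the table.

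The death receptor genes went in opposite directions. TNFRSF10B (gene ID 8795, chromosome 8) encodes the TRAIL receptor known as DR5. It had the smallest Q value of the 6, 0.000895, at -0.92 on the log2 scale in the authors' deposited gene table, or 0.53 times the control level in HRP2 knockdown cells. It ranked 94th of 684 genes by Q value. FAS (gene ID 355, chromosome 10), the receptor of FAS ligand, was at a log2 fold change of 0.51 there with the largest Q value of the 6, 0.0375, which puts knockdown cells at 1.43 times the control level. FAS was a small change among its kind, 304th by size of the 361 higher genes, whose median log2 fold change was 0.66. The difference, TNFRSF10B minus FAS, was -1.43 on the log2 scale. Of the other 8 death receptor genes on the list none was in the table, the paralogous TRAIL receptors TNFRSF10A, TNFRSF10C and TNFRSF10D included. None of 5 death ligand genes was in the table either, so neither TNFSF10 (TRAIL) nor FASLG (FAS ligand) has a value.

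TP53INP1 (gene ID 94241, chromosome 8), a p53-induced gene whose product promotes p53 phosphorylation and takes part in autophagy, was at -0.83 on the log2 scale in the authors' deposited gene table (Q = 0.00721), or 0.563 times the control level in HRP2 knockdown cells. TP53INP2, its paralogue and an autophagy gene, was lower as well, at -0.52 (Q = 0.0391) in the same authors' deposited table. Setting BBC3 aside, the 4 other lower members lay within 0.18 of each other on the log2 scale.

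**Figure D2:**
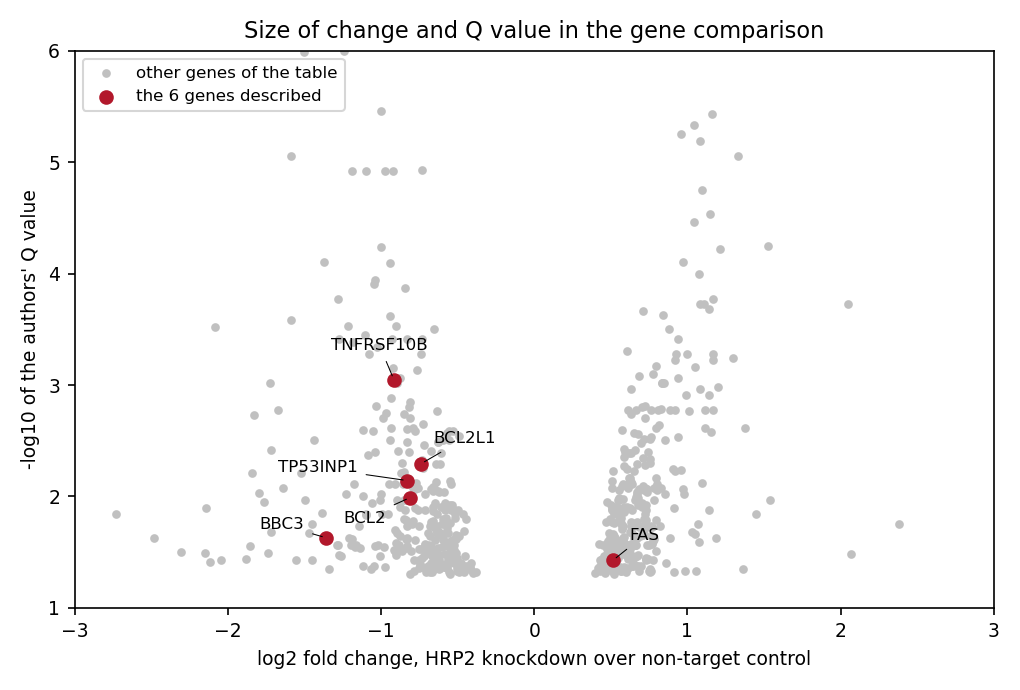
Log2 fold change of HRP2 knockdown over non-target control (horizontal axis) and the negative log10 of the Q value (vertical axis) for 653 of the 684 genes of the authors' deposited gene table, with 31 genes beyond the axis limits left out. The 6 genes described are marked. TNFRSF10B stands highest of them and FAS, on the right, lowest, while BBC3 lies far to the left at a low height.

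Beyond the 6 members, the lists of apoptosis and p53 genes held 88 further genes, of which 6 were in the authors' deposited gene table. That is 6.82%, against 2.81% of all listed mRNA genes, many of which have no symbol and may not be expressed in these cells. The lists were chosen with earlier results of these data known, so nothing is read from the difference between these shares. Of the 6 further genes called, 5 were higher and 1, TP53INP2, was lower. BNIP3, a BCL2 relative best known as a mitophagy receptor induced by hypoxia, was at 1.52 on the log2 scale (Q = 5.62e-05) there. It shares 20.0% of its sequence words, stretches of 31 nucleotides, with other genes. MLKL, the pore-forming effector of necroptosis, lay at 0.65 (Q = 0.0177) and CASP2, an initiator caspase, at 0.46 (Q = 0.0471) in the authors' deposited gene table. The BAG proteins are HSP70 co-chaperones, and 2 of the 6 on the list were called, BAG2 at 0.81 (Q = 0.00226) and BAG4, which also binds death domains of TNF family receptors, at 0.67 (Q = 0.0235). With the members, 25 genes of the BCL2 family lists had 4 called (16%, 3 lower and 1 higher). The 25 genes for death receptors, ligands and their signalling had 3 called (12%, 1 lower and 2 higher). Both counts include members taken from the table, so nothing is read from these shares either. Of the 10 inhibitor of apoptosis genes and antagonists, XIAP and BIRC5 among them, none was in the gene table.

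Of 27 p53 target genes 4 were in the authors' deposited gene table (14.8%, against 2.81% of all listed mRNA genes). All 4 are members, which were taken from that table, so nothing is read from this share. FAS was the only one of the 4 that was higher. The other 23 were outside the table, CDKN1A and MDM2 among them, the p53 targets most often used as readouts of p53 activity. The 4 called genes did not share a direction.

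At the transcript level the changes of the members were of another size. The called transcript of BCL2L1, NM_001322239.1, was at a log2 fold change of -9.04 (Q = 0.00186) in the authors' deposited transcript table, set against -0.74 for the gene. GENCODE 29 ties it to a model with 2 exons that encodes 233 residues, the length of BCL-xL, and 1 other coding transcript of the gene has the same coding exons. The short form, a model of 170 residues that is the length of BCL-xS, was not in the table. RefSeq lists 11 transcripts of BCL2L1, and the remaining 10 have no value. GENCODE ties 5 RefSeq transcripts to that same model, which therefore does not set the called one apart from the other 4.

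The called transcript of TP53INP1, NM_033285.3, was lower still, at -11.70 (Q = 2.67e-07) in the authors' deposited transcript table, set against -0.83 for the gene. It encodes the longer protein, of 240 residues, and the other coding model in GENCODE encodes 164. By size it was the 18th lowest of the 510 lower transcripts. Values of this size were common there: 79.1% of the transcripts in the authors' deposited transcript table had an absolute log2 fold change of 6 or more, and 49% were lower. The levels behind the values in that table are not known, and whether a group held almost none of a transcript was not tested. Their sizes are therefore not read as measured folds. Both called transcripts had a Q value under 0.01, as did 63.2% of all transcripts there. The median over the lower transcripts was -8.97. Neither gene had a transcript called higher that could be set beside the lower value of the called one. BCL2, BBC3, TNFRSF10B and FAS had no called transcript, of 6, 7, 3 and 19 that RefSeq lists for them.

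Outside the members, 7 transcripts of 4 of the 88 other list genes were called, each from a gene outside the gene table, 4 lower and 3 higher. Of all called transcripts 49% were lower. The share of all genes with a called transcript was not computed, so nothing is read from these counts. MDM2, the ubiquitin ligase of p53, had one transcript at -1.86 and another at 9.89 in the authors' deposited transcript table. CYLD, a deubiquitinase of TNF receptor signalling, had 3 transcripts in the authors' deposited transcript table, at -10.71, -8.34 and 1.64. Single transcripts of BIRC6, an inhibitor of apoptosis, and XPC, a DNA repair gene, lay at -9.71 and 23.01 in the same authors' deposited table. For MDM2 and CYLD the called transcripts thus went both ways.

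**Figure D3:**
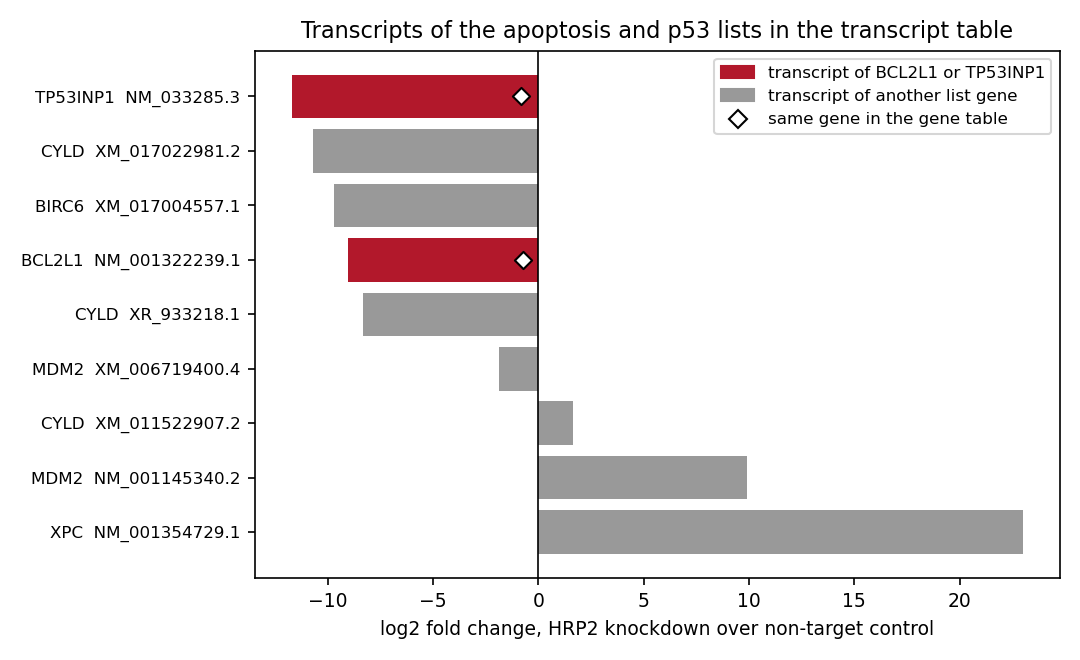
Log2 fold change of HRP2 knockdown over non-target control (horizontal axis) for the 9 transcripts of the apoptosis and p53 lists in the authors' deposited transcript table, 1 bar each, in dark red for BCL2L1 and TP53INP1. White diamonds mark the same gene in the gene table, at -0.74 for BCL2L1 and -0.83 for TP53INP1, far shorter than the bars of -9.04 and -11.70. No error is given in the table.

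Base composition went with direction across the table, and the members followed that only in part. Transcripts of lower genes had a median GC content of 57.5%, and those of higher genes 46.7%. BBC3 had a GC content of 64.4%, BCL2L1 56.6% and TNFRSF10B 51.2%, all above the median of the higher genes. The BCL2L1 value is a median over 9 coding models. Their median length was 914 nucleotides, against 2578 for the model of the called transcript. That GC content may therefore not describe the full-length transcript. Of the lower members only BBC3 was above the median of the lower genes. BCL2 at 45.6% and TP53INP1 at 39.5% were below both medians, although both were lower in the knockdown. TP53INP1 was at the 4.02 percentile of GC content among the lower genes and BCL2 at the 16.1 percentile. TNFRSF10B was at the 29.1, BCL2L1 at the 45.8 and BBC3 at the 87.0 percentile. FAS, the higher gene, had 41.9%. The part of GC content in these values was not tested.

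**Figure D4:**
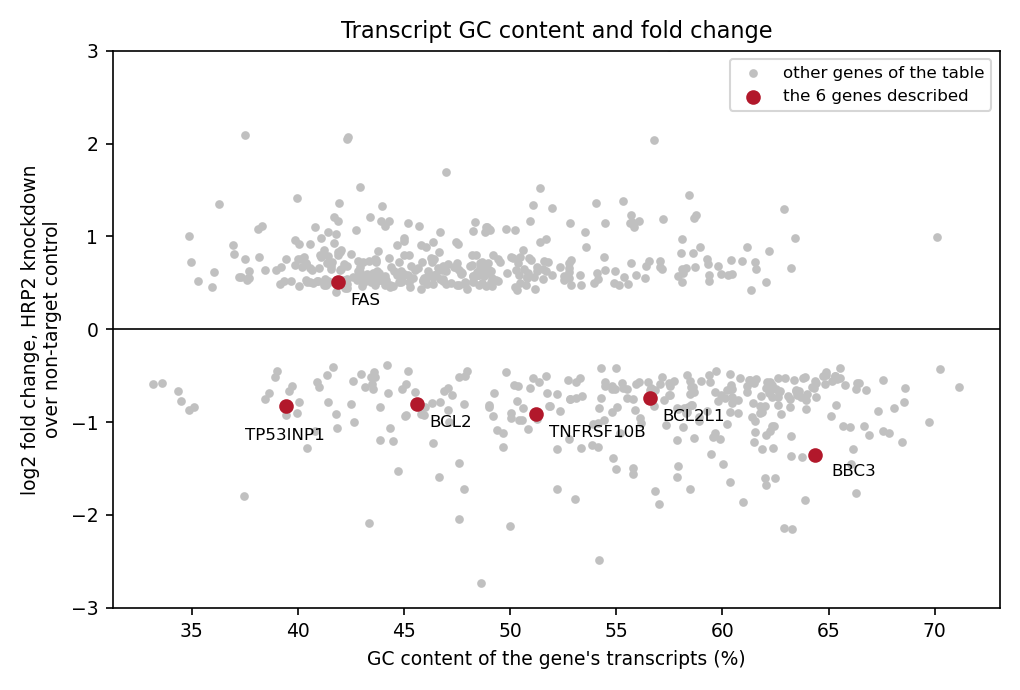
Median GC content of each gene's transcripts (horizontal axis, %) against the log2 fold change of HRP2 knockdown over non-target control (vertical axis) for 669 of the 684 genes, with genes beyond 3 in absolute log2 fold change or without a GC value left out. The 5 lower members are spread over the axis from TP53INP1 at 39.5% to BBC3 at 64.4%, and FAS is at 41.9%.

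The members shared little sequence with other genes, but several overlap one. TNFRSF10B shared 4.18% of its sequence words with other genes, and the other 5 members shared none. In GENCODE 29 the exons of BCL2L1 overlap those of the antisense gene ABALON over 1424 nucleotides, and those of FAS overlap ACTA2, on the opposite strand, over 380. TNFRSF10B overlaps RHOBTB2 over 67 nucleotides, also on the opposite strand. BBC3 holds the microRNA genes MIR3190, on the opposite strand, over 80 nucleotides and MIR3191, on the same strand, over 76. None of these partners was in the gene table. The sources used here do not say whether the counting used strand. Without it, reads of a pair on opposite strands cannot be told apart over the shared stretch. Strand would not tell reads of BBC3 and MIR3191 apart in either case.

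Of the 60 nearest protein-coding neighbours of the members in RefSeq, 5 on each side of each, 2 were called (3.33%), close to the 2.81% of all listed mRNA genes. None was called around BCL2, BBC3, TNFRSF10B and FAS. The called neighbour of BCL2L1 was ID1, at 0.97 on the log2 scale, and that of TP53INP1 was INTS8, at 0.63 in the authors' deposited gene table, both opposite in direction to the member beside them. ID1, a helix-loop-helix inhibitor gene, and INTS8, an Integrator subunit gene, were named after their values were seen. Of all genes in the table, 52.8% were higher, and members did not all go with most called genes of their own chromosome. On chromosome 10, with FAS, 24 of the 28 called genes were higher. On chromosome 19, with BBC3, 28 of 41 were lower, and on chromosome 20, with BCL2L1, 10 of 15 were lower. On chromosome 18, 8 of 12 were higher, although BCL2 was lower, and on the chromosome that TNFRSF10B and TP53INP1 share, 19 of 31 were higher, although both were lower.

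Promoter windows, from 250 bases before a gene's start to 50 after it, were given by RefSeq (GRCh38.p14) for 4 of the members, in 7 windows. A set of 5 motifs was searched on both strands: the GC box GGGCGG, the CCAAT box CCAAT, the TATA box TATAAA, the E box CACGTG and the ETS site CCGGAAGT. No motif overlapped another in the stretches printed. Of all 35116 windows 45% held a GC box, 34.6% a CCAAT box, 11.5% a TATA box, 7.26% an E box and 4.14% an ETS site. The stretches before the first annotated exon of BCL2L1 and BBC3 are shown because these lower members, one that restrains apoptosis and one that promotes it, can so be set side by side. The BCL2L1 stretch is chr20:31723990-31724213 on the minus strand, upstream of the outermost start, and the BBC3 stretch is chr19:47232767-47232917 on the minus strand. Capitals mark the motifs, TATA boxes in BCL2L1 and an E box in BBC3.
BCL2L1: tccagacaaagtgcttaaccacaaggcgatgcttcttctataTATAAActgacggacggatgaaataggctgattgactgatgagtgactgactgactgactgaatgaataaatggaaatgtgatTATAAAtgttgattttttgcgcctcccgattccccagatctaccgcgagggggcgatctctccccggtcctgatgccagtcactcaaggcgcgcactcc
BBC3: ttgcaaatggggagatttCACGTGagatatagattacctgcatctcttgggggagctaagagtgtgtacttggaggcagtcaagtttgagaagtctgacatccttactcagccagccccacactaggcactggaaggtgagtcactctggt

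The 2 stretches shared no motif of the 5. The whole BCL2L1 window held an ETS site as well, just after the start, and the second BCL2L1 window, 271 bases from the start of the called transcript's model, held a GC box instead. The BBC3 window held a CCAAT box in addition, and its start lies 1473 bases from that of the principal BBC3 transcript in GENCODE. All 3 FAS windows held a GC box, but 2 of them overlap and hold the same one. The BCL2 window held none of the motifs. The BCL2 window had the highest GC content of the 7, 70.7%, and the BBC3 window the lowest, 48%, although BBC3 had the most GC-rich transcripts. A match describes letters and is not a binding site.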

How the data were processed

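RNA sequencing libraries of LP-1 cells, 2 of HRP2 knockdown and 2 of non-target control, came from RNA taken up in Trizol and were prepared by BGI's protocols, per the labels. BWA, Bowtie2 and RSEM and the build hg19 are named, without roles, per the submitters' processing notes. The sources used here do not give their versions, the annotation, the use of strand, the scaling or how Q was computed. The log2 fold changes are as deposited by the authors, at gene and transcript level. The Q values (adjusted p-values) are as deposited by the authors too. The other deposited lists hold names alone and no score or count. No column of per-sample values was left out.

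The planned tests on values per library were not run. From the tables, 6 genes were matched by symbol, counted by direction and ranked, with lists of 94 apoptosis and p53 genes and 25 markers (2 list genes are not reported here). Members and lists were chosen with earlier results of these data known. Named genes were the members and every other called list gene that is reported. Transcript GC content, and sequence words of 31 nucleotides shared with other genes, came from GENCODE 29 (coding transcripts, medians per gene, 676 of 684 genes), with the word count checked on simulated sequences. Alternatives were a stricter Q value (0.01), a minimum absolute log2 fold change (1), matching by gene ID, leaving out 35 genes that share 50% or more of their words or are readthroughs, and transcripts under 6. Python 3.11.15, pandas 2.3.3 and numpy 2.4.6 were used.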

Additional observations from a re-analysis of the deposited data

How the results depend on the processing

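All 6 members were found when genes were matched by gene ID and when genes sharing sequence were left out, as were all 12 called genes of the lists. Members were taken from this table, so finding them again there is no independent check. The largest share of words was 4.18% among members and 20.0%, for BNIP3, among the called list genes. The limit of 50% could therefore remove none of them. At a Q value under 0.01, 3 members remained in the authors' deposited gene table, BCL2L1, TNFRSF10B and TP53INP1 (37.3% of all genes there passed). Of the 12 called list genes 5 remained, namely these 3 members, BNIP3 and BAG2. With the absolute log2 fold change required to reach 1, 1 member remained, BBC3 (21.8% of all genes there passed). The list genes that remained were 2, BBC3 itself and BNIP3. No single member passed both limits. At transcript level, 0 of the 6 members had a called transcript under 6 in absolute log2 fold change, and of the 2 called transcripts 0 were under 6, while both had a Q value under 0.01. No paired analysis was possible because the deposited tables hold the authors' comparison and no value per library was used; for the same reason leaving out each library, another normalization and another filter were not run. The depth of the libraries is unknown.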
